A study of Mus musculus with 12 samples.

Results

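The semaphorin, plexin, Eph receptor and ephrin genes are 51 of the 54227 gene symbols in a table of RNA levels from sorted mouse liver cells. They were taken by symbol alone: every semaphorin of the classes Sema3 to Sema7, every plexin of the Plxna, Plxnb, Plxnc and Plxnd groups, every Epha and Ephb receptor and every Efna and Efnb ligand. This gave 20 semaphorins, 9 plexins, 14 Eph receptors and 8 ephrins. The cells came from C57Bl/6 mice that all carry the transgene Sox9EGFP, in which green fluorescence reports on Sox9, a transcription factor of bile duct cells. The mice were fasted for 16 h, the livers were digested, and cells were sorted by fluorescence into 4 gates, which the labels call GFPneg, GFPsublow, GFPlow and GFPhigh and which are called neg, sub, low and high here. Each gate had 3 libraries of 12000 cells, numbered 1 to 3, made with a stranded kit that primes total RNA at random. The labels give neither age nor sex, and no antibody is named for the sort, so a gate is a range of EGFP brightness and can hold several cell types. In the sample descriptions the libraries with the same number share a tag across all 4 gates, whose meaning is not given. The labels do not say whether the 3 libraries of a gate came from different mice, so the p-values measure the spread between these libraries, which may be technical.

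Semaphorins are secreted or membrane-bound ligands, and plexins are their receptors, which act on small GTPases to rearrange the cytoskeleton and the contacts of a cell. Class 3 semaphorins are secreted and mostly need a neuropilin beside the plexin, with Sema3e as the known exception that binds Plxnd1 directly. Eph receptors are tyrosine kinases that bind ephrins on a neighbouring cell, and signals run into both cells. Efna ligands are anchored by a lipid and Efnb ligands span the membrane. In blood vessels Ephb4 marks veins and its ligand Efnb2 marks arteries, while Epha2 is best known from epithelia.

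The promoters of 4 members are shown because these genes had the highest mean per kilobase of exon in their family in the gate named: Ephb4 and Plxnd1 in neg, Efnb2 in sub, and Epha2 in both low and high. They were chosen with these levels known. Each line holds the 250 bases before the RefSeq start on GRCm38.p6, 5′ to 3′ on the strand of the gene, and capitals mark GGAA or its reverse complement TTCC, the core that ETS factors bind.
Ephb4: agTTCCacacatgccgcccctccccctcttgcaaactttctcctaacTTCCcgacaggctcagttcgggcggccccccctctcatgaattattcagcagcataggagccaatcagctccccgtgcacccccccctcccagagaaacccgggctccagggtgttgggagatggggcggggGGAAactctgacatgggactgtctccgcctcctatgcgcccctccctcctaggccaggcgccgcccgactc
Plxnd1: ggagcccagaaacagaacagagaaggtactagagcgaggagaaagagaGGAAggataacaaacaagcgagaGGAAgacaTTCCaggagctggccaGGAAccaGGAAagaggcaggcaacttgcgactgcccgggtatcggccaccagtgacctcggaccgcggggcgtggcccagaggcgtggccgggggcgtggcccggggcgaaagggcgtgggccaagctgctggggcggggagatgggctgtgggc
Epha2: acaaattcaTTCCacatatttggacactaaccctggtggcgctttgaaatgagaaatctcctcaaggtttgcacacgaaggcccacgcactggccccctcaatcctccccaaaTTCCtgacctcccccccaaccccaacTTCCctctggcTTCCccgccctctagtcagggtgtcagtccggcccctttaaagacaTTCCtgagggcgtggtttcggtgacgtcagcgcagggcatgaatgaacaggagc
Efnb2: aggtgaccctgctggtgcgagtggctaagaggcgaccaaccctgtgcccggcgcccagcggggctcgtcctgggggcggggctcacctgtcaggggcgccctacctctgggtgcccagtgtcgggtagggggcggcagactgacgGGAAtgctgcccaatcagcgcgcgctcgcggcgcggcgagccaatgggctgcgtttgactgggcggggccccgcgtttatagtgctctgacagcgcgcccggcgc
They lie at chr5:137349859-137350108 on the plus strand, chr6:115995006-115995255 on the minus strand, chr4:141300971-141301220 on the plus strand and chr8:8661243-8661492 on the minus strand. The Ephb4 window held 3 ETS cores, Plxnd1 and Epha2 held 5 each, and Efnb2 held 1. This core is common: it stood in 93.4% of the 32851 promoter windows of this length in the RefSeq table and in 93.2% of the 59 windows of the 45 members that matched it. The letters ACAAT or ATTGT, a core bound by SOX factors, stood in 27.7% of all windows, in 18.6% of the 59 and in none of these 4. The box CCGCCC or GGGCGG, bound by KLF and SP factors, stood in 32.7% of all windows and in 74.6% of the 59. A match describes letters, not a bound site, and no match says only that these letters are not in this window.

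Libraries held 8775387 to 15535588 reads and 9039 to 12687 genes above 0. Levels are normalised counts, the reads of a gene scaled by a single factor per library. Neg and sub are called the dim gates below, and low and high the bright gates. Sox9 stood at 0 to 0.691 normalised counts in neg, 3707 to 6653 in sub, 8838 to 17140 in low and 11793 to 13969 in high. Beside this, the summed level of 10 endothelial marker genes was 121838 ± 22276 (SD, n = 3) for neg, 33345 ± 2955 for sub, 1409 ± 629 for low and 677 ± 193 for high, with all 10 genes above 0 in neg and sub, Lyve1 and Emcn at 0 in low, and Eng and Emcn at 0 in high. The 10 stellate and mesenchymal markers summed to 28912 ± 7996, 30766 ± 7202, 987 ± 849 and 701 ± 436 in the same order. Of these, Lrat and Colec11 were at 0 in low and in high, and Pdgfrb and Col3a1 were also at 0 in high. The 10 biliary markers, Sox9 among them, summed to 22.2 to 412 in neg, 19824 to 35892 in sub, 66425 to 90763 in low and 61733 to 68625 in high, and 10 hepatocyte markers to 395 to 871, 6880 to 7523, 13930 to 21610 and 17968 to 20955. In bulk RNA of this kind, fewer cells of a type and less RNA per cell cannot be told apart. The part of these markers in the results below was not tested.

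Of the 51 genes, 6 were at 0 in all 12 libraries (Sema4f, Sema5b, Epha6, Epha8, Efna3 and Efna4) and 10 were above 0 in all 12 (Sema3f, Sema4b, Sema5a, Sema6a, Sema6d, Plxnb2, Epha2, Epha5, Ephb4 and Efnb2). A filter on low values, a mean of at least 10 normalised counts over the 12 libraries, was passed by 43 members: 18 semaphorins, 9 plexins, 10 Eph receptors and 6 ephrins. Besides the 6 at 0, Epha10, seen in 3 libraries with at most 2.45 normalised counts, and Ephb1, seen in a single library at 31.1, did not pass. The libraries were uneven at the level of a single gene: in 41 of the 172 pairs of a tested member and a gate, 23.8%, 1 library was at 0 while another of the same gate held at least 100 normalised counts. Among all 16128 tested genes that share was 30.8%. Differences on the log2 scale are therefore large for such genes, and so are their standard errors.

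**Figure D1:**
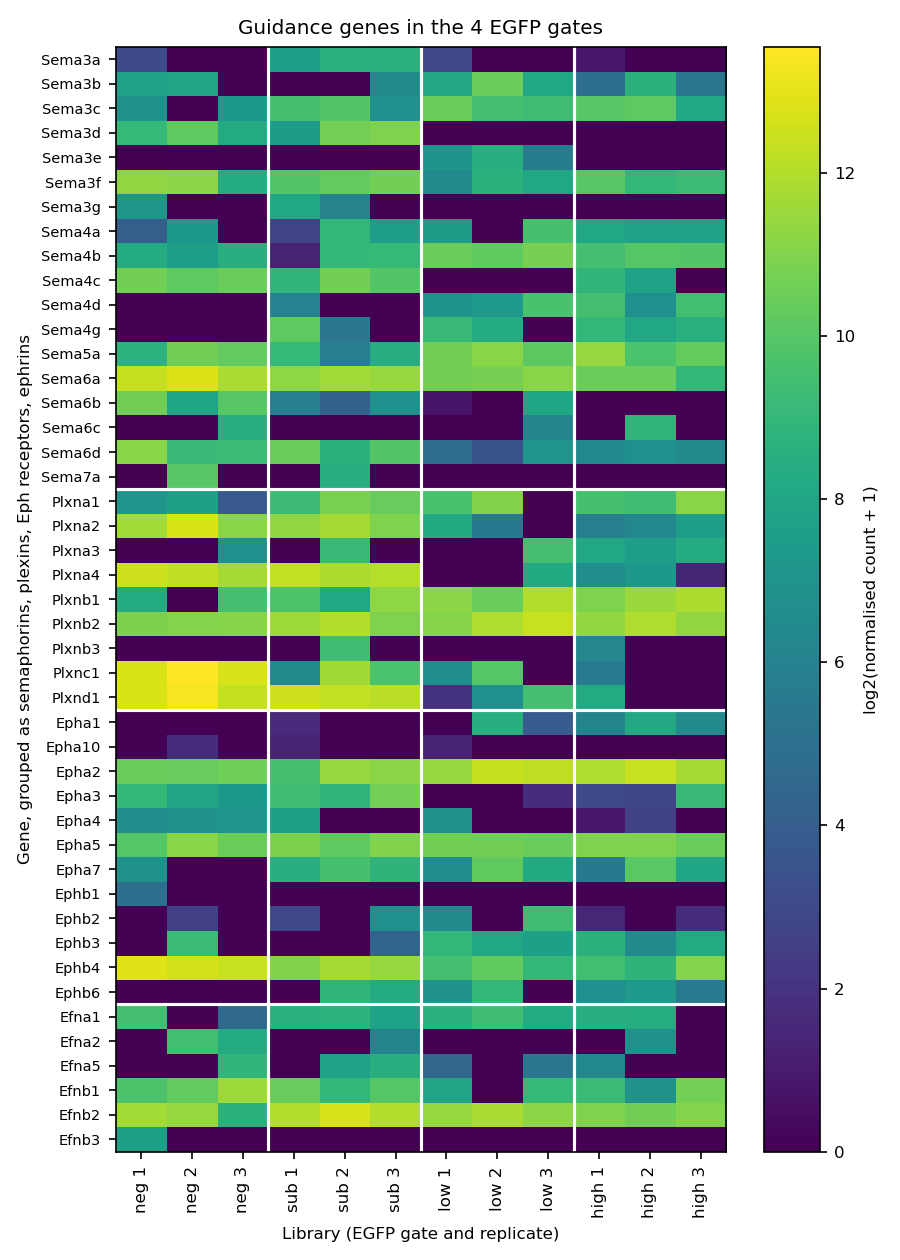
Level of each of the 45 members seen in any library, as log2(normalised count + 1) in colour, with genes as rows grouped by family and the 12 libraries as columns grouped by gate. White lines separate families and gates, and the darkest cells are libraries at 0. Plxna2, Plxna4, Plxnc1 and Plxnd1 are bright in neg and darker than there in every low and high library, while Epha2 and Plxnb2 are bright in all 12.

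The differences between gates were tested with limma on log2(normalised count + 1) over all 16128 genes, with p-values adjusted over all of them and a threshold of 0.05. The error given with a log2 difference is its standard error. In low against neg, 6 of the 43 tested members passed, 5 lower and 1 higher, which is 14.0% of them, where 4.69% of all tested genes passed (2.15% lower and 2.55% higher). In high against neg 6 passed, all lower, against 4.69% of all genes (2.25% lower). In low against sub 2 passed, both lower, against 0.744% of all genes (0.614% lower), and in high against sub 2 passed, both lower, against 0.986% (0.868% lower). With the replicate number as a block, each of these last 2 counts was 1. Sub against neg gave 0 calls among the members, where 1.19% of all genes passed, and 6 members (Efnb2, Epha7, Plxnb1, Sema3a, Sema3c and Sema5a), 14.0% of those tested, had an unadjusted p under 0.05, as did 9.54% of all genes. High against low gave 0 calls, as over all genes (0.0%), with Sema3e and Sema4c at an unadjusted p under 0.05, as for 4.24% of all genes. On the recovered reads of 10 libraries edgeR called 0 members in sub against neg and DESeq2 called 6, and in high against low they called 2 and 4. The shares of all genes that these tools called are not given here, so these counts are not compared with a background.

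The 16 calls fell on 10 genes: 5 semaphorins (Sema3d, Sema3e, Sema4c, Sema6a and Sema6b), 4 plexins (Plxna2, Plxna4, Plxnc1 and Plxnd1) and 1 Eph receptor (Ephb4). No ephrin passed in any comparison with limma, while DESeq2 called Efna2 in low against neg (adjusted p = 0.0306). Below, a member is said to pass or not by limma, and some that did not pass were called under other settings. In 15 of the 16 the level was lower in the brighter gate, the exception being Sema3e, and in all 16 the libraries of the 2 gates did not overlap. The calls rest on these same libraries, so the lack of overlap adds no separate support. Its share among all called genes is not given here. On the recovered reads, edgeR did not call Sema3e in low against neg, Ephb4, Sema3d, Sema6a and Sema6b in high against neg or Sema3d in high against sub. DESeq2 did not call Sema3e in low against neg, Plxna4 in low against sub or Plxnd1 in high against sub. A fit of only the 2 gates compared kept Ephb4 and Sema4c in low against neg alone. Limma on the same 10 libraries did not call Plxna2 or Plxna4 in low against neg. In high against neg it did not call Ephb4, Plxnc1, Plxnd1 or Sema6b, and it called no member in low or in high against sub. A moderated F test of any difference among the 4 gates passed 8 members, 18.6% of those tested, where 4.23% of all genes passed: all of the 10 except Sema6a (adjusted p = 0.0521) and Sema6b (adjusted p = 0.133). The median log2 difference over the 43 was -0.63 in low against sub, where it was 0 over all genes, and -0.88 in high against sub, where it was 0.20. In the other contrasts both medians lay between 0 and 0.15. With each gene at the floor in 1 gate set to its bound, the members' medians were again -0.63 and -0.88, with 0.01 instead of 0.15 in sub against neg and 0.25 instead of 0.09 in high against neg. Libraries that did not overlap between low and neg were lower in low for 11 members, 25.6%, against 8.52% of all genes, and higher in low for 8 members, 18.6%, against 8.38%. Between high and neg they were lower in high for 11 members against 8.61% of all genes, and higher in high for 12 members, 27.9%, against 10.2%. The comparisons share gates, so their counts are not independent of each other.

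**Figure D2:**
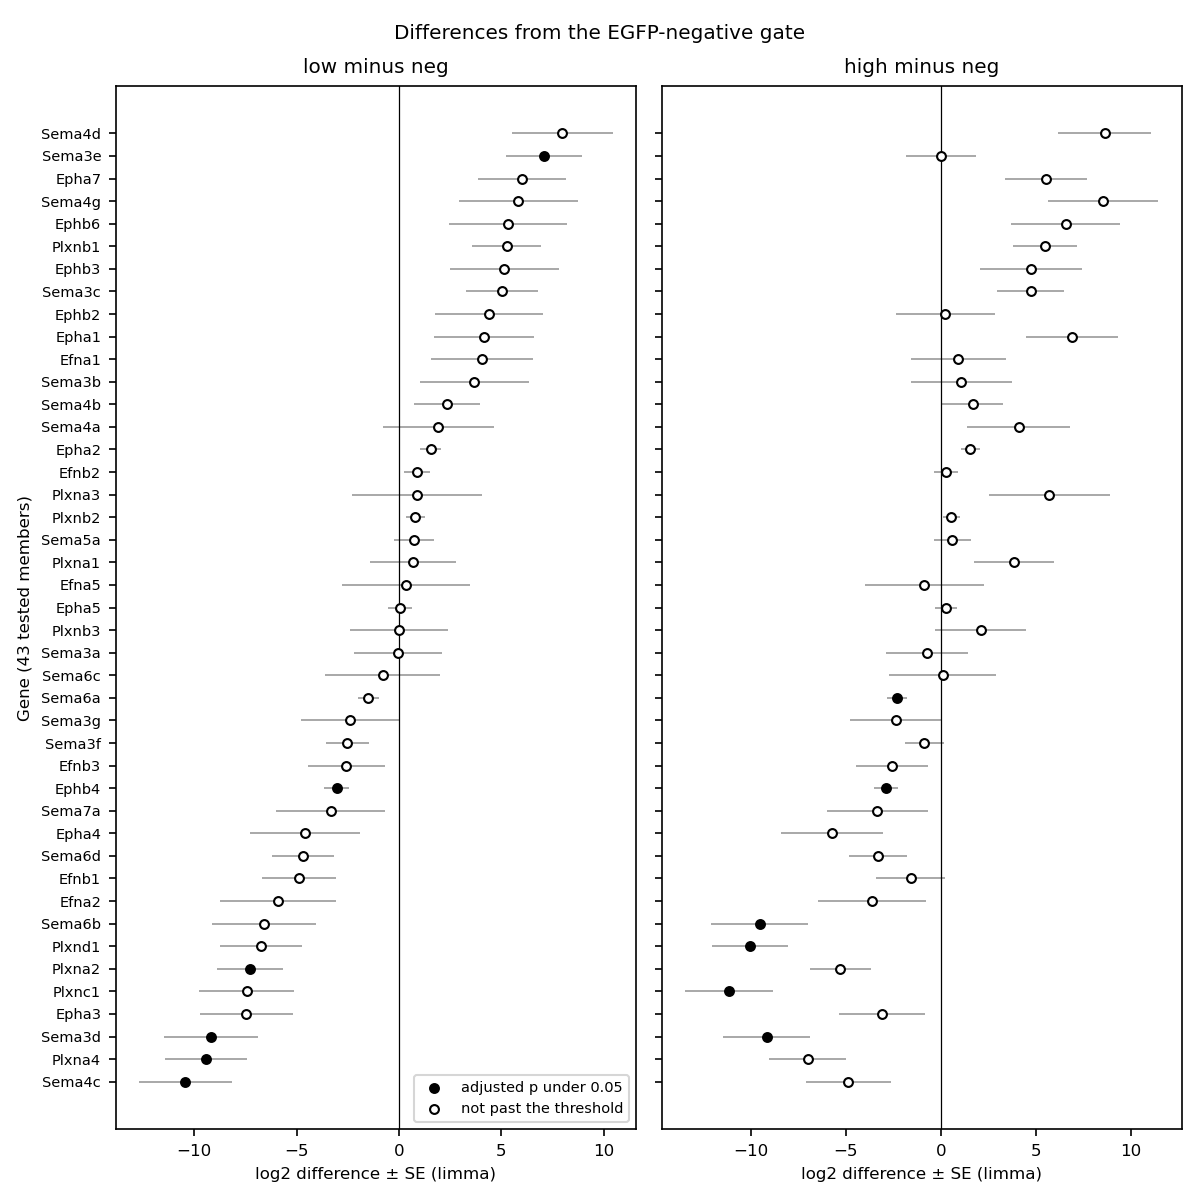
Log2 difference from neg for the 43 tested members, ordered by the difference in low, with low minus neg on the left and high minus neg on the right. Points are limma estimates on the log2(normalised count + 1) scale with standard errors, filled where the adjusted p was under 0.05. Filled points are at -3.04 and below or, for Sema3e, at 7.08 on the left, and at -2.33 and below on the right.

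Among the secreted class 3 semaphorins, Sema3d, a guidance cue for axons and for cells of the cardiovascular system, was seen in neg and sub and in no library of low or high. It stood at 534, 1175 and 308 in neg, at 164, 1704 and 1964 in sub, at 0 in every low library and at 0 in every high library. The 6 libraries of the dim gates ranged from 164 to 1964 and none of the 6 bright libraries held a read. Against the floor of 3 reads in a library, Sema3d was at least 264-fold lower in low than in neg and at least 421-fold lower in high than in sub. The log2 difference was -9.18 ± 2.28 in low against neg (adjusted p = 0.0237), -9.18 ± 2.28 in high against neg (adjusted p = 0.0234) and -9.68 ± 2.28 in high against sub (adjusted p = 0.0485). Low against sub had the same difference and an adjusted p of 0.0533, which missed the threshold. The F test stayed past it with any 1 library left out (adjusted p at most 0.0226). Low against neg lost its call without neg 1, neg 2 or any low library (0.0501 to 0.0669), the contrast of high with neg without neg 1, neg 2 or any high library (0.0515 to 0.0667), and that of high with sub without any neg, sub or high library (0.0547 to 0.152) or with the replicate number as a block (0.0725). In the dim gates, where Sema3d was seen, the endothelial markers summed to 31440 to 144321 and the stellate and mesenchymal ones to 22423 to 39044. In the bright gates these sums were 555 to 2011 and 202 to 1919, and their part in the difference was not tested.

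Sema3e, the direct ligand of Plxnd1, was the single member with a call of a higher level in a brighter gate. It stood at 0 in every neg library, at 0 in every sub library, at 129.9, 368 and 50.1 in low and at 0 in every high library, so that it was seen in low alone. Low was at least 49.8-fold higher than neg, with a log2 difference of 7.08 ± 1.86 (adjusted p = 0.0328). Against sub and high, which were also at 0, the difference had the same size but adjusted p-values of 0.0934 and 0.727. The gene passed the filter through low only, and its call was lost without any neg library, low 1, low 2 or high 1 (0.0509 to 0.0729), and with the replicate number as a block (0.0517). It was also lost with a pseudocount of 5 (0.0539), in a fit of only the 2 gates (0.192), with edgeR (0.434) and with DESeq2 (0.0569), so neither count tool called it.

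Sema3a, a repellent of axons that acts through Nrp1, was highest in sub, the only gate with all 3 libraries above 100. Its levels stood at 7.60, 0 and 0 in neg, at 188, 389 and 406 in sub, at 6.68, 0 and 0 in low and at 0.865, 0 and 0 in high. Sub did not overlap with any other gate, and the mean there was 129-fold that of neg. The log2 difference from neg was 7.24 ± 2.17, with an adjusted p of 0.158 that missed the threshold, as did the F test (adjusted p = 0.0832). The gene passed the filter through sub only.

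Sema3c, another class 3 ligand, and Sema3f, a ligand that pairs with Nrp2, lay in opposite orders. Sema3c stood at 124, 0 and 148 in neg, at 785, 954 and 113 in sub, at 1411, 715 and 638 in low and at 1035, 1157 and 282 in high, and all low and high libraries were above all of neg. Its log2 difference from neg was 5.03 ± 1.76 in low (adjusted p = 0.127) and 4.72 ± 1.76 in high (adjusted p = 0.154). Sema3f stood at 2539, 2311 and 322 in neg, at 969, 1239 and 1606 in sub, at 88.3, 414 and 269 in low and at 1025, 503 and 602 in high. It was lowest in low, where no library reached the levels of sub or high, while neg 3 lay within the range of low. Its difference in low against neg was -2.52 ± 1.03 (adjusted p = 0.211). The remaining members of the class, Sema3b and Sema3g, were seen in 9 and 3 libraries with highest values of 1378 in low 2 and 264 in sub 1.

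Among the membrane-bound class 4 semaphorins, Sema4c, a ligand of Plxnb2, was at 0 in every low library. It stood at 1609.8, 1178 and 1396 in neg, at 472, 1637 and 965 in sub, at 0 in every low library and at 476, 220.3 and 0 in high. All neg and sub libraries held at least 472 normalised counts, and high lay between 0 and 476, so that high overlapped with sub by a few counts and not with neg. Low was at least 547-fold lower than neg, with a log2 difference of -10.43 ± 2.25 (adjusted p = 0.00939), and at least 402-fold lower than sub, with -9.83 ± 2.25 (adjusted p = 0.0476). The call against neg was the only one of the 16 that held under all 23 alternatives, with adjusted p-values up to 0.0386. That against sub was lost with any 1 of 11 libraries left out (0.0582 to 0.168) and with the replicate number as a block (0.0600), and held without high 3. Of the 31-base words in its exons, 6.45% also occur in a single other gene, D430040D24Rik, which runs antisense across part of it, so its count is uncertain if the counting did not use strand.

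Sema4d, the ligand of Plxnb1, was at 0 in neg and had its highest values in the bright gates, without a call by limma. Its libraries stood at 0 in every neg library, at 62.6, 0 and 0 in sub, at 127, 154 and 814 in low and at 749, 112 and 696 in high. All 6 bright libraries were above all 6 dim ones. High was at least 141-fold higher than neg, with a log2 difference of 8.61 ± 2.45 and an adjusted p of 0.0504, and low at least 99.5-fold, with 7.98 ± 2.45 and 0.0726. High against neg passed in 7 of the alternatives and low against neg in 4, among them DESeq2 (adjusted p = 1.4e-05 and 2.08e-05).

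Sema4b and Sema4g, both of the same class, had their lowest mean in neg. Sema4b stood at 321, 192 and 358 in neg, at 1.47, 522 and 536 in sub, at 1403, 1226 and 1737 in low and at 754, 995 and 981 in high, and low lay above every other gate. Its difference in low against neg was 2.36 ± 1.61, with an adjusted p of 0.536. Sema4g stood at 0 in every neg library, at 1154, 40.1 and 0 in sub, at 566, 326 and 0 in low and at 492, 272 and 382 in high, with the highest value in sub 1 and a single low library at 0. High did not overlap with neg, and the difference of 8.54 ± 2.90 had an adjusted p of 0.108. Sema4a was seen in 10 libraries, up to 791 in low 3.

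Sema6a, a transmembrane ligand of Plxna2 and Plxna4, had the highest mean per kilobase of the semaphorins over the 12 libraries and a lower level in each brighter gate. It stood at 5328, 7236 and 3595 in neg, at 2397, 3198 and 2807 in sub, at 1596, 1721 and 2246 in low and at 1407, 1477 and 524 in high. No 2 gates overlapped, and each gate lay below the dimmer one. The mean was 4.74-fold lower in high than in neg, with a log2 difference of -2.33 ± 0.52 (adjusted p = 0.0120), while low against neg gave -1.50 ± 0.52 (adjusted p = 0.127). The call was lost without neg 2 (0.0574) or high 3 (0.0560), and also without the variance trend (0.240), in a fit of only the 2 gates (0.103) and with edgeR (0.0750). Per kilobase of exon the level of Sema6a was 614 ± 208 in neg and 129 ± 60.5 in high.

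Sema6b, a ligand of Plxna4 with a similar structure, was at 0 in every high library. It stood at 1535, 252 and 1032 in neg, at 57.5, 17.2 and 112 in sub, at 0.742, 0 and 256 in low and at 0 in every high library. Neg lay above sub and high without overlap, and low 3 alone kept it from lying above low. High was at least 309.9-fold lower than neg, with a log2 difference of -9.53 ± 2.56 (adjusted p = 0.0372), a call that was lost without any neg or any high library (0.0575 to 0.100).

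Sema6d, a ligand of Plxna1, stood at 2249, 556 and 595 in neg, at 1466, 414 and 963 in sub, at 28.2, 10.2 and 131 in low and at 78.7, 112 and 84.9 in high. All 6 bright libraries, at 10.2 to 131, lay below all 6 dim ones, at 414 to 2249. The difference was -4.69 ± 1.52 in low against neg (adjusted p = 0.0932) and -3.30 ± 1.52 in high (adjusted p = 0.283), neither past the threshold.

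Sema5a, a semaphorin with thrombospondin repeats, was lowest in sub. Its libraries stood at 439, 1535 and 1268 in neg, at 531, 53.8 and 345 in sub, at 1561, 2230.3 and 1108 in low and at 2668, 825 and 1315 in high. Sub lay below low and high without overlap and below neg 2 and neg 3 but not below neg 1. The difference in low against sub was 2.86 ± 0.98 (adjusted p = 0.240). Sema6c and Sema7a, a lipid-anchored ligand of Plxnc1, were seen in 3 and 2 libraries, each with a highest value in a single library of 457 (high 2) and 1027 (neg 2).

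**Figure D3:**
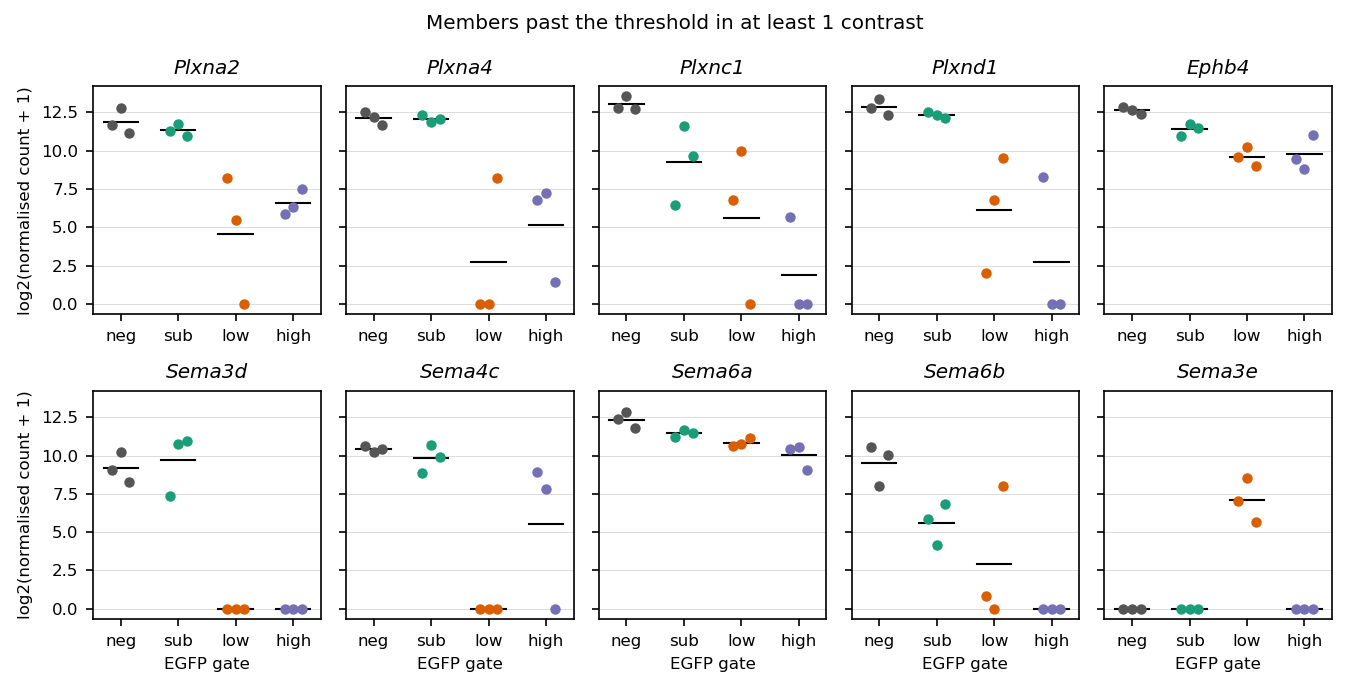
The 10 members past the threshold in at least 1 contrast, with log2(normalised count + 1) on the vertical axis and the 4 gates on the horizontal axis. Points are the 3 libraries of a gate and the line is their mean on this scale. Ephb4 and Sema6a are above 0 in all 12 libraries, whereas the other 8 have at least 1 bright library at 0, and Sema3e is above 0 in low alone.

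Of the 9 plexins, 7 are described first as 2 groups. Plxna2, Plxna4, Plxnc1 and Plxnd1 had their highest mean in neg and their lowest in a bright gate, and Plxna1, Plxnb1 and Plxnb2 had their lowest mean in neg. Summed, the first 4 stood at 17572 to 34178 normalised counts in neg, 11667 to 15478 in sub, 407 to 1170 in low and 185 to 527 in high. The other 3 summed to 2319 to 2907, 4465 to 6141, 5300 to 9411 and 5354 to 8629 in the same order. The genes were put into these sums by their order of levels, so the sums describe them and carry no test.

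Plxnd1, a plexin of endothelial cells that takes part in vessel patterning, had the highest mean per kilobase of the plexins over the 12 libraries. It stood at 7104, 10462 and 5157 in neg, at 6034, 5093 and 4580.3 in sub, at 2.97, 109 and 735 in low and at 313, 0 and 0 in high. All dim libraries held at least 4580 and all bright ones at most 735, with 2 high libraries at 0. The ratio of means between neg and high was 72.5, with a log2 difference of -10.06 ± 1.99 (adjusted p = 0.00483), and that between sub and high was 50.1, with -9.58 ± 1.99 (adjusted p = 0.0254). Low against neg gave -6.73 ± 1.99 (adjusted p = 0.0608). The call of high against neg held without any 1 library (at most 0.0421), while that against sub was lost without any neg or sub library, high 2 or high 3 (0.0579 to 0.125). On GRCm38 the gene lies at chr6:115954811-115995005, minus strand.

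Plxnc1, the receptor of Sema7a, had its highest level in neg. It stood at 7132, 11974 and 6818 in neg, at 86.2, 3132 and 822 in sub, at 108, 1017 and 0 in low and at 49.3, 0 and 0 in high. Neg lay above every other library, sub spread over a wide range, and 3 bright libraries were at 0. The ratio of means between neg and high was 526, with a log2 difference of -11.14 ± 2.32 (adjusted p = 0.00698), which held without any 1 library (at most 0.0456). In sub the mean was 6.42-fold lower than in neg, with a difference of -3.78 ± 2.32 and an adjusted p of 0.676. Its F test lost its call without any neg library, sub 2, sub 3, high 2 or high 3 (0.0554 to 0.129). Plxnc1 is at chr10:94790866-94944835, minus strand.

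Plxna4, a receptor for class 3 and class 6 semaphorins, stood at 5902, 4785 and 3319 in neg, at 5119, 3829 and 4284 in sub, at 0, 0 and 296 in low and at 107, 151 and 1.63 in high. Sub lay within the range of neg, and the bright libraries were all at 296 or less, with low 1 and low 2 at 0. Low was 44.7-fold below sub by ratio of means, with a log2 difference of -9.36 ± 2.01 (adjusted p = 0.0382), and 47.3-fold below neg, with -9.41 ± 2.01 (adjusted p = 0.00880). High against neg gave -7.02 ± 2.01 and an adjusted p of 0.0521. The call against neg held without any 1 library (at most 0.0478) but was lost in limma on the 10 libraries of the count tests. That against sub was lost without any neg or sub library, low 1, low 2 or high 1 (0.0503 to 0.141). Its position is chr6:32144268-32588192, minus strand.

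Plxna2, another receptor for class 6 and class 3 semaphorins, stood at 3298, 6956 and 2278 in neg, at 2528, 3424 and 1981 in sub, at 296, 44.2 and 0 in low and at 57.1, 79.8 and 183 in high. The dim libraries, from 1981 upward, were all above the bright ones, from 296 downward. Low was 36.8-fold below neg by ratio of means, with a log2 difference of -7.30 ± 1.61 (adjusted p = 0.0111), and high 39.2-fold, with -5.30 ± 1.61 (adjusted p = 0.0693). Without neg 2 the call in low was lost (0.0664), and the F test lost its call without neg 1 (0.0549) or neg 2 (0.0722). Plxna2 is at chr1:194618218-194816869, plus strand.

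Of the B plexins, Plxnb1 and Plxnb2 had their lowest mean in neg. Plxnb1, the receptor of Sema4d, stood at 322, 0 and 758 in neg, at 855, 266 and 2413 in sub, at 2361, 1415 and 4012 in low and at 1964, 2968 and 3787 in high. All bright libraries lay above all of neg, and neg 2 was at 0. The difference was 5.25 ± 1.68 in low against neg (adjusted p = 0.0863) and 5.49 ± 1.68 in high (adjusted p = 0.0700), neither past the threshold. With the replicate number as a block both passed (adjusted p = 0.0360 and 0.0275). Plxnb2, the receptor of Sema4c and a plexin of many epithelia, stood at 1908, 2109.6 and 2136 in neg, at 2988, 4058 and 1925 in sub, at 2137, 3864 and 5398 in low and at 2609.8, 3968 and 2591 in high. It held at least 1908 in every library, and low and high lay above neg, low only just. The difference was 0.79 ± 0.46 in low against neg (adjusted p = 0.438). Its coefficient of variation over all 12 libraries was 37.2%, where the median over the 1533 genes with a mean between 1000 and 3000 was 57.5%.

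Plxna1, a receptor for class 3 semaphorins and Sema6d, stood at 139, 209 and 12.6 in neg, at 621, 1818 and 1358 in sub, at 802, 2053 and 0 in low and at 779.7, 677 and 2250.1 in high. Sub and high lay above neg, and low reached from 0 to above every sub library. The difference in high against neg was 3.85 ± 2.10 (adjusted p = 0.390). Of its 31-base words, 8.57% also occur in other genes, mostly in the antisense Gm26811, so its count is uncertain if the counting did not use strand. Plxna3 was seen in 6 libraries, among them all 3 of high, and Plxnb3 in 2, with highest values of 716 (low 3) and 672 (sub 2).

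Per kilobase of exon, which allows genes to be compared, Plxnc1 and Plxnd1 held 34.7 ± 2.99% and 34.5 ± 2.89% of the summed plexin level in neg (SD, n = 3). In sub Plxnd1 held 35.6 ± 7.76% and Plxnb2 18.5 ± 4.04%. In low and high Plxnb2 held 48.4 ± 4.81% and 44.5 ± 11.2%, followed by Plxnb1 with 28.1 ± 12.2% and 33.1 ± 5.24%. The leading shares were thus those of a C and a D plexin in neg and of B plexins in low and high. The endothelial marker sum was 86.5-fold lower in low than in neg and 180-fold lower in high, and 23.7-fold lower in low than in sub. The first plexin sum, as means, went from 25062 in neg to 869 in low and 314 in high.

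**Figure D4:**
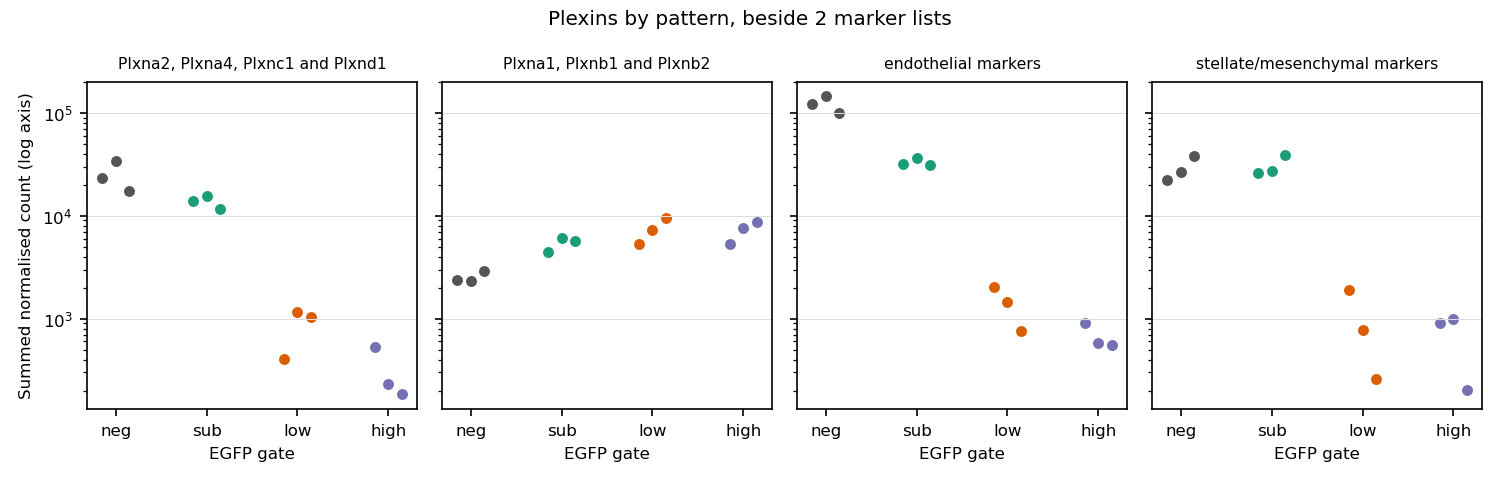
Summed normalised count per library on a log axis for Plxna2, Plxna4, Plxnc1 and Plxnd1, for Plxna1, Plxnb1 and Plxnb2, for 10 endothelial markers and for 10 stellate and mesenchymal markers, with the 4 gates on the horizontal axis and 1 point per library. The first sum is at least 11667 in all neg and sub libraries and at most 1170 in all low and high ones, and both marker sums are also lower in low and high than in sub. Between neg and sub the endothelial sum is 3.65-fold lower while the stellate and mesenchymal sum is 1.06-fold higher.

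The co-receptors were read from a list of 12 genes that bind semaphorins or pair with plexins, of which 10 were tested. In low and in high against neg the same 5 passed, 4 lower and 1 higher, where 4.69% of all genes passed in either comparison, and in high against low none did. Nrp1, the neuropilin of Sema3a and of vascular growth factor, stood at 8238, 7197 and 8555 in neg, at 2172, 3154 and 3217 in sub, at 193, 0 and 212 in low and at 15.6, 149 and 0 in high. Neg, sub and the bright gates did not overlap, and the difference from neg was -7.85 ± 1.94 in low (adjusted p = 0.0235) and -9.20 ± 1.94 in high (adjusted p = 0.00775). Nrp2, the neuropilin of Sema3f, stood at 10849, 6022 and 8234 in neg, at 2759.9, 4080.5 and 3239.8 in sub, at 278, 60.3 and 27.1 in low and at 263, 132 and 309.5 in high, again in separate ranges. It was lower in low than in sub by 27.6-fold (-5.40 ± 0.93, adjusted p = 0.00831) and than in neg by 68.6-fold (-6.70 ± 0.93, adjusted p = 0.000140). Met, a growth factor receptor that pairs with B plexins, went the other way and stood at 0, 0 and 29.0 in neg, at 515, 1899 and 409 in sub, at 2425, 2325 and 1682 in low and at 2674, 968 and 954 in high. It rose in sub against neg (7.89 ± 1.53, adjusted p = 0.00871), in low (9.41 ± 1.53, adjusted p = 0.000749) and in high (8.77 ± 1.53, adjusted p = 0.00144). The other 2 that were lower in both bright gates were Itga1, an integrin chain, with -4.38 ± 0.91 in low (adjusted p = 0.00732), and Kdr, a receptor of vascular growth factor that is also among the endothelial markers, with -10.00 ± 1.85 (adjusted p = 0.00284). In high against sub Nrp2 (-3.90 ± 0.93, adjusted p = 0.0499) and Itga1 (-3.85 ± 0.91, adjusted p = 0.0498) passed. Of these calls, those of Nrp2, Met, Itga1 and Kdr in low and in high against neg held without any 1 library. In a fit of only the 2 gates compared, Nrp2 kept both, while Nrp1, Met, Itga1 and Kdr lost theirs. Itga1 in low was also lost without the variance trend, and Kdr in high in limma on the 10 libraries of the count tests. Nrp1 lost its call in low without any neg library or low 2 (0.0831 to 0.0906) and in high without high 3 (0.0534). Without sub 2, Nrp2 in low against sub (0.0811) and Met in sub against neg (0.0681) lost theirs. In high against sub, Nrp2 lost it without any neg, sub or high library (0.0763 to 0.183), and Itga1 without any neg or sub library, high 1 or high 2 (0.0735 to 0.179) and with edgeR or DESeq2. With the replicate number as a block, Nrp2 lost its call in high against sub (0.0630), while Kdr passed against sub in low (0.0273) and in high (0.0235). Over the 10 tested genes the median difference was -3.14 in low and -2.58 in high against neg, or -3.91 and -3.46 with floor values replaced by bounds, where it was 0 and 0.13 over all genes. The endothelial markers, of which Kdr is one, were lower in the same gates, and their part was not tested.

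Of 27 plexin effectors, 25 were tested and a single call was made over all 6 contrasts, in high against neg, where 1 of 25 is near the 4.69% of all genes that passed. It was Fyn, a kinase downstream of plexins, which was lower in high (-9.13 ± 2.33, adjusted p = 0.0276), a call lost without any neg library, high 2 or high 3 (0.0869 to 0.124) and with DESeq2. With the replicate number as a block Rnd3, a small GTPase, also passed in high against neg (0.0376). The median difference over the 25 effectors was -0.56 in low and 0.91 in high against neg, with or without that replacement.

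Among the Eph receptors, Ephb4, the receptor that marks veins, led in neg and fell in both bright gates. It stood at 7545, 6467 and 5507 in neg, at 2003, 3368 and 2853 in sub, at 756, 1225 and 522 in low and at 687, 445 and 2130.0 in high. Neg lay above every other library, sub above all of low, and high 3 alone reached into the range of sub. The mean was 7.80-fold lower in low than in neg, with a log2 difference of -3.04 ± 0.62 (adjusted p = 0.00667), and 5.98-fold lower in high, with -2.89 ± 0.62 (adjusted p = 0.00919). Sub against neg gave -1.27 ± 0.62 (adjusted p = 0.539) without overlap. The call in low held without any 1 library (at most 0.0348). The call in high was lost without high 2 (0.0531), and the F test without neg 1 (0.0603). Without the variance trend the calls in low (0.149) and in high (0.165) were both lost. That in high was also lost in a fit of only the 2 gates (0.0970), with edgeR (0.126) and in limma on the 10 libraries of the count tests (0.0758). The gene lies at chr5:137350109-137378669, plus strand, and its promoter is the first of the sequences above. The endothelial marker sum, which was 86.5-fold lower in low than in neg and 180-fold lower in high, moved in the same direction, and its part in the fall of Ephb4 was not tested.

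Epha2, the epithelial receptor, was the most abundant Eph receptor per kilobase in low and high. It stood at 1399.8, 1369.7 and 1484 in neg, at 766, 2705 and 2337 in sub, at 2798, 5192 and 4796 in low and at 3918, 5396 and 3402 in high. All 6 bright libraries lay above all 6 dim ones, and neg varied little. The mean was 3.01-fold higher in low than in neg, with a log2 difference of 1.54 ± 0.52 and an adjusted p of 0.110, and 2.99-fold higher in high, with 1.55 ± 0.52 and 0.101. Both missed the threshold, and of the 23 alternatives only the one without sub 1, the lowest of the sub libraries, passed them (0.0398 and 0.0371). Epha2 is at chr4:141301240-141329384, plus strand. The biliary marker sum was 402-fold higher in low than in neg and the hepatocyte sum 26.1-fold higher, and their part in the level of Epha2 was not tested.

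The 2 receptors traded places in rank. From neg over sub and low to high, the level of Ephb4 per kilobase of exon was 1402 ± 219.8, 591 ± 149, 179.8 ± 77.2 and 234 ± 196, and that of Epha2 303 ± 12.7, 414 ± 220.3, 912 ± 275 and 907 ± 221 (SD, n = 3). The ratio of Epha2 to Ephb4 was 0.184, 0.21 and 0.268 in the neg libraries, 0.38, 0.797 and 0.813 in sub, 3.68, 4.21 and 9.12 in low and 5.66, 12 and 1.59 in high. It was thus below 1 in all 6 dim libraries and above 1 in all 6 bright ones. Ephb4 held 74.2 ± 3.68% of the summed Eph receptor level per kilobase in neg, and Epha2 held 65.5 ± 9.64% in low and 63.8 ± 11.7% in high. The pair was chosen with these levels in view, so the ratio is a description without a test.

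Epha5, known mainly as a neural receptor, was nearly flat. It stood at 1006, 2219.7 and 1465 in neg, at 1867, 1179 and 2032 in sub, at 1594, 1562 and 1428 in low and at 1916, 1927 and 1477 in high. All 4 gates overlapped, and the F test gave an adjusted p of 0.989. Its coefficient of variation over all 12 libraries was 21.9%, and 2 of the 1533 genes of a mean between 1000 and 3000 had a lower one. Of its 31-base words, 0.438% occur in other genes. Per kilobase it stood between 91.3 ± 5.25 in low and 106 ± 15.3 in high, since its exons span 16739 bases. The neural and glial markers Sox10, S100b, Tubb3 and Snap25 were at 0 in both neg and low.

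Epha3, a receptor of mesenchymal cells in development, was low in the bright gates with 1 exception. It stood at 519, 241 and 151 in neg, at 682, 466 and 1686 in sub, at 0, 0 and 2.47 in low and at 6.92, 6.06 and 559 in high. Low was at or under the floor of 3 reads in every library, and high 3 lay above every neg library. Low was at least 371-fold lower than sub, with a log2 difference of -9.07 ± 2.26 (adjusted p = 0.0723), and at least 119-fold lower than neg, with -7.46 ± 2.26 (adjusted p = 0.0676). Neither passed with limma, and both did with DESeq2 (4.11e-05 and 6.54e-05).

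Epha1 and Ephb6, a receptor without kinase activity, were at 0 in neg. Epha1 stood at 0 in every neg library, at 2.21, 0 and 0 in sub, at 0, 369.6 and 14.0 in low and at 68.4, 284 and 80.9 in high, so that all 3 high libraries held it and the dim ones at most 2.21. The difference in high against neg was 6.88 ± 2.43 (adjusted p = 0.126). Of its 31-base words, 8.4% occur in 2 other genes, most of them (202 of 332) in 2010010A06Rik. Zyx also overlaps its exons on the opposite strand, so the count of Epha1 is uncertain. Ephb6 stood at 0 in every neg library, at 0, 461 and 315 in sub, at 123, 516 and 0 in low and at 109.9, 158 and 46.6 in high, with all 3 high libraries above neg. The difference there was 6.56 ± 2.88 (adjusted p = 0.254). The other Eph receptors that passed the filter were Epha4, seen in 7 libraries up to 199 (sub 1), Epha7, in 10 up to 1217 (low 2), Ephb2, in 7 up to 652 (low 3), and Ephb3, in 8 up to 609 (neg 2). Epha4 had its 3 neg libraries between 104 and 131 and its high libraries at 0 to 5.05, and Epha7 was at 353 to 784 in sub and at 0 in neg 2 and neg 3, both without a call by limma on all 12 libraries.

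Efnb2, the ligand of Ephb4 and a marker of arteries, had its highest mean in sub. It stood at 3245, 2702 and 415 in neg, at 3986, 6726 and 4117 in sub, at 2701, 3691 and 2312 in low and at 1955, 1566 and 2117 in high. Sub lay above every other library, and low above high. The mean in sub was 2.33-fold that of neg, with a log2 difference of 1.64 ± 0.63 (adjusted p = 0.355), and the F test gave 0.408. Per kilobase it stood at 721 ± 225 in sub and 309 ± 219 in neg, and it held 27.0 ± 19.1% of the summed ephrin level in neg and 56.9 ± 10.8% in sub. Its share was 55.4 ± 4.82% for low and 42.3 ± 3.38% for high. The gene lies at chr8:8617434-8661242, minus strand.

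Efnb1, another B ephrin, stood at 883, 1249 and 3012 in neg, at 1357, 498 and 1017 in sub, at 244, 0 and 541 in low and at 594, 119 and 1655 in high. Per kilobase its mean in neg, 497 ± 329.8, was above that of Efnb2, and the libraries of the 2 genes overlapped there. Neg lay above low without overlap, with a difference of -4.87 ± 1.80 and an adjusted p of 0.157. Efna1, the main ligand of Epha2, was seen in 10 libraries, at 311 to 677 in low and with neg 2 and high 3 at 0. Efna2 was seen in 4 libraries up to 708 (neg 2) and in none of low. Efna5 was seen in 6 up to 485 (neg 3), and Efnb3 in neg 1 alone at 208. Summed per library, the ephrins stood at 4249 to 5059 in neg, 5725 to 7879 in sub, 3207 to 4368 in low and 2130 to 3772 in high, so that sub lay above every other gate. The Eph receptors summed to 8739 to 11036 in neg and 7176 to 9389 in high, ranges that overlap.

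**Figure D5:**
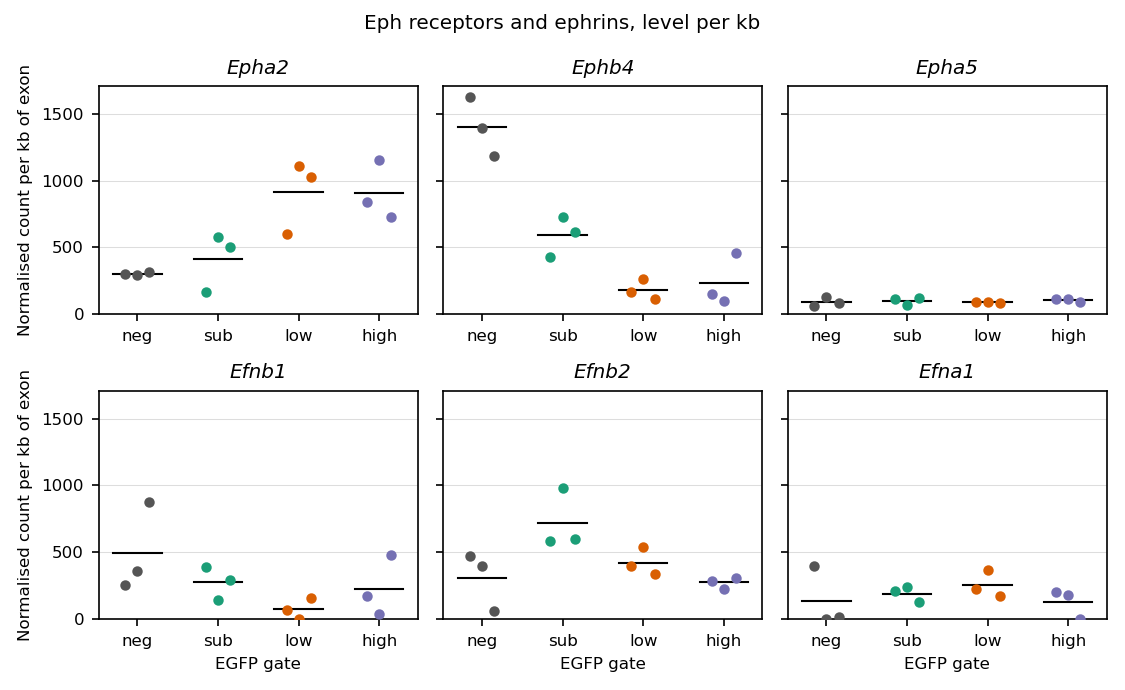
Normalised count per kilobase of exon for 3 Eph receptors (top) and 3 ephrins (bottom), with the 4 gates on the horizontal axis, 1 point per library and a line at the mean. Ephb4 has means of 1402 in neg, 180 in low and 234 in high and Epha2 of 303, 912 and 907, and the gate means of Epha5 lie between 91.3 and 106. Efnb2 has its highest mean, 721, in sub.

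From a list of 28 effectors and regulators of Eph and ephrin signals, 25 were tested. In low against neg 3 of the 25 passed and in high against neg 4, where 4.69% of all genes passed in each. Ngef, an exchange factor that EphA receptors activate, stood at 395, 0 and 0 in neg, at 151, 608 and 469 in sub, at 684, 1015 and 1697 in low and at 666, 1194 and 900.0 in high. It rose in low (7.17 ± 1.95, adjusted p = 0.0398) and in high (6.93 ± 1.95, adjusted p = 0.0471), and all bright libraries lay above all of neg. Nck2, an adaptor, rose too, with 7.34 ± 1.81 in low (adjusted p = 0.0232) and 6.83 ± 1.81 in high (adjusted p = 0.0352). Itsn1, an exchange factor that EphB receptors activate, stood at 6615, 6588 and 8686 in neg, at 3803, 3847 and 2608 in sub, at 1147, 766 and 1935 in low and at 756, 1766 and 1031 in high and fell by ratio of means 5.69-fold in low (adjusted p = 0.00457) and 6.16-fold in high (adjusted p = 0.00299). Rgs3, which binds B ephrins, fell in high (-9.56 ± 2.58, adjusted p = 0.0377). Itsn1 kept both calls without any 1 library. It lost both without the variance trend, and the one in low also in a fit of only the 2 gates compared. Ngef lost its call in low and in high without any of 11 libraries, all but neg 1 (0.0515 to 0.145 and 0.0583 to 0.157), and in high with the replicate number as a block (0.0559). Neither edgeR nor DESeq2 called Ngef or Nck2 in low or in high. Nck2 lost it in low without neg 2, neg 3 or any low library (0.0586 to 0.0989) and in high without these, sub 1 or any high library (0.0507 to 0.145), and Rgs3 without any neg or high library (0.0661 to 0.114). No gene of the list passed in the other 4 contrasts. With the block Arhgef15, an exchange factor of the list, passed in high against neg (0.0338). The median difference over the 25 was -0.39 in low and 0.12 in high against neg, which the bounds did not alter.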

How the data were processed

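The values are the authors' normalised counts, a deposited signal for each gene in each library. Salmon, DESeq2 1.26.0 and the build mm10 are named in the submitters' processing notes, without roles. Which annotation was used, and whether counting used strand, is not given in the sources used here. In each column 100% of the values above 0 were whole multiples (tolerance 0.01) of the value of 1 read, 0.691 to 1.22, so each was handled as whole reads scaled by a single factor of its library. Sub 3 and high 2, whose value of 1 read lies close to 1, were left out of the count tests, which used 10 libraries. Of the 54227 symbols, 33571 were at 0 throughout, and the 16128 with a mean of at least 10 held 99.9% of the summed values.

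Gates were compared on log2(normalised count + 1) by a linear model of all 12 libraries with the gate as its term (limma 3.58.1, R 4.3.3, eBayes using a variance trend). It gave 6 contrasts and 1 moderated F test, two-sided, with Benjamini-Hochberg adjustment over all tested genes. Adjusted p-values are limma's where no other tool is named. The added 1 shrinks log2 differences between low values, and for genes at 0 the difference depends on it. Where only some libraries of a gate were at 0, the log2 difference could be larger than the ratio of means implies. Plxnd1 in high against neg, for example, had -10.06 beside a ratio of means of 72.5. A gate whose libraries all held 3 reads or fewer of a gene was at the floor for it, and folds against it are bounds from 3 reads in a library. The kit's molecular identifiers are not mentioned in the labels, so these limits cover counting error only.

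Levels per kilobase used exon lengths from GENCODE M21 (GRCm38), in which all 51 members were found by symbol, and coordinates are from there. Promoters are RefSeq's. Words of 31 bases were compared between transcripts of all genes. A member was given with every value when it passed a contrast or the F test, was among the 20 of highest mean, or was above 3 reads in all libraries of 1 gate and in none of another, which gave 28. The members, the partner and marker lists and the tests were chosen with earlier results of these data known. The alternatives changed the pseudocount (0.5, 5), the filter (none, or a mean of 100) and the scaling (equal totals), and added the replicate number as a block, a fit without variance trend, a fit of only the 2 gates compared, edgeR 4.0.16 and DESeq2 1.42.0 on recovered reads, each library left out, and limma on the 10 libraries, the last added after the data were seen. The limma step was also run on simulated counts, drawn around each gene's mean over all libraries with the same spread for every gene. These did not copy the libraries at 0 beside high ones seen here, so the run does not show how limma behaves on such genes. Figures were drawn with matplotlib 3.10.9.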

Additional observations from a re-analysis of the deposited data

How the results depend on the processing

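No call changed direction under any of the 23 alternatives. Over the 24 calls (16 contrasts and 8 F tests) and their alternatives, 383 of 540 results kept the call and 157 lost it. The count of members called moved as follows. The share of all genes called under each setting is not given here, so these counts are not compared with a background. In sub against neg, where it was 0, it was 1 without the variance trend and 6 with DESeq2, and 0 to 1 with a library left out, the 1 (Epha7) arising without neg 1. In low against sub, where it was 2, it was 1 with a pseudocount of 0.5, 4 with a mean of at least 100, 5 without the variance trend, 0 in a fit of only the 2 gates, 5 with edgeR, 8 with DESeq2 and 0 in limma on the 10 libraries. It was 0 to 2 with a library left out, 0 without any neg or sub library, low 2 or high 1, and 1 without low 1, low 3 or high 2. In high against low, where it was 0, it was 1 without the variance trend, 2 with edgeR and 4 with DESeq2. In low against neg, where it was 6, it was 2 in a fit of only the 2 gates and 14 with DESeq2, and 3 to 8 with a library left out, the 3 without neg 2. Plxna2 and Plxna4 lost their calls in that contrast in limma on the 10 libraries. In high against neg, where it was 6, it was 1 in a fit of only the 2 gates, 12 with DESeq2 and 2 in limma on the 10 libraries. It was 3 to 8 with a library left out, the 3 without neg 2, high 2 or high 3. In high against sub, where it was 2, it was 1 without a filter, 0 in a fit of only the 2 gates, 4 with edgeR and 0 in limma on the 10 libraries. It was 0 to 4 with a library left out, 0 without any neg or sub library, high 2 or high 3, 1 without high 1 and 4 without low 3. The F test, at 8, gave 2 in limma on the 10 libraries and 3 to 8 with a library left out, 3, 4 and 5 without neg 1, neg 2 and neg 3. The cause of these shifts was not tested. A fit of 2 gates or of 10 libraries has fewer samples.

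With the replicate number as a block, the count was 1 in low against sub, where the call of Sema4c was lost (adjusted p = 0.0600), 1 in high against sub, where that of Sema3d was lost (0.0725), 7 in high against neg and 7 in the F test, where Sema3e was lost (0.0812). It was 6 in low against neg, where Sema3e lost its call (0.0517). Plxnb1 gained a call in low against neg (0.0360) and in high against neg (0.0275). The count stayed at 0 in the remaining contrasts. The deviations of libraries with the same number from their gates correlated by -0.0161 to 0.0266, and differently numbered ones averaged -0.00439. Deviations within a gate sum to 0, so that average is tied to the same-numbered values and is no separate reference. The correlations were small in size and cannot show whether the libraries were paired. The libraries of a number also share a tag in the sample descriptions, so a shared source is possible and was not settled here. Rescaling to equal totals shifted the median of all genes by at most 0.038 in size (log2). DESeq2 gave no adjusted p for Plxnc1. At these depths a library at 0 limits a gene to 3 reads in that library, and in this material a 0 beside at least 100 normalised counts in a replicate was frequent, so a gate's level of a low gene is known only roughly.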

Other observations

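Known ligand and receptor pairs among the 51 genes did not all have their highest means in the same gate. Sema4d and its receptor Plxnb1 both had their highest mean in high, at 519 ± 353 and 2907 ± 913 normalised counts (SD, n = 3), and their lowest in neg, at 0 and 360.0 ± 381. Sema6a and its receptors Plxna2 and Plxna4 all had their highest mean in neg, at 5386 ± 1821, 4177 ± 2459.9 and 4669 ± 1296. Sema3e was seen in low alone, at 183 ± 165, where its receptor Plxnd1 stood at 282 ± 396 against 7575 ± 2684 in neg. Sema4c was at 0 in low, where the mean of its receptor Plxnb2 was the highest, at 3799.9 ± 1631. Efnb2 had its highest mean in sub, at 4943 ± 1546, and Ephb4 in neg. Efna1 and Epha2 both had theirs in low, at 465 ± 189.6 and 4262 ± 1283. The pairs were set side by side with the levels known, and no relation between them was tested.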
